A study of Mus musculus with 30 samples.

Results

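The comparison sets glomeruli of 24 week old ob/ob mice against those of 16 week old ob/ob mice. It uses the 4 arrays of each age as their titles name them, 8 of the 30 arrays of the study, and covers all genes tested. Both groups are female mice of the BTBR ob/ob strain, so all 8 animals share the loss of leptin and differ in age alone as far as the labels say. The study also holds ob/ob mice of 4 and 8 weeks and BTBR wild-type females of the same 4 ages, with 3 or 4 animals per group. Kidneys were passed through sieves, the glomerular fraction was collected, and total RNA went on Affymetrix arrays, 1 array for 1 animal. The fraction is a bulk preparation that still holds tubule: Slc34a1, the phosphate transporter of the proximal tubule brush border, gave a log2 signal of 18.79 to 19.43 at 16 weeks and 19.02 to 19.11 at 24 weeks. In bulk RNA, fewer cells of a type and less RNA per cell cannot be told apart.

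The glomerulus filters plasma through fenestrated endothelium, a basement membrane and the foot processes of podocytes, with mesangial cells holding the capillary loops together. BTBR ob/ob mice become obese and diabetic because they lack leptin, and they are used as a model of progressive diabetic kidney disease with mesangial matrix expansion and podocyte loss. The step from 16 to 24 weeks is the late phase of the time course that the study covers.

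Of the 4 arrays of 24 weeks, 3 stood apart in quality. Control probe sets in exons and introns were separated with an area under the curve of 0.778, 0.783 and 0.762 in 24 week replicates 1, 2 and 4, against 0.861 in replicate 3 and 0.832 to 0.873 in the 16 week arrays. The means were 0.796 ± 0.044 at 24 weeks and 0.847 ± 0.019 at 16 weeks (SD, n = 4 each). A two-sided exact permutation test of the means gave p = 0.114 (adjusted over 4 quality measures 0.143). With 4 against 4 arrays no p can fall below 0.0286, so the test cannot show that the ages were alike. Intron controls, which mark the background, had medians of 6.79, 6.68 and 6.73 in replicates 1, 2 and 4 and of 5.90 in replicate 3. At 16 weeks they ran from 5.84 to 6.35. Because the poorer arrays make up 3 of the 4 at 24 weeks, age and array quality cannot be told apart in the group differences. Where replicate 3 shares a change, only 1 animal with good separation bears on it. Each result is therefore given with the value of replicate 3. Array weights estimated from the fit were lowest of the 30 arrays for replicate 3, at 0.217. Replicates 1, 2 and 4 had 0.674, 1.17 and 0.699. Such a weight reflects distance from the group mean, and 3 of the 4 arrays in that mean are the poorer ones. It therefore cannot show whether replicate 3 is atypical. The genes of replicate 3 deviated from the median array with an interquartile range of 0.283. The range was 0.201 to 0.282 at 16 weeks and 0.391 to 0.512 in the other 24 week arrays. Between the ages this range gave p = 0.0286 in the exact permutation test (adjusted over 4 quality measures 0.114). One 16 week array also stood apart: replicate 4 was the highest of its group on the endothelial and mesangial marker lists.

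The deposited scale reaches 19.93, above the log2 limit of 16 of a 16-bit scanner, so a step not stated in the sources used here has stretched it. A difference is 24 minus 16 weeks in log2 units of the deposited table, with its standard error after ±, and no linear folds are given. Precision is set by the 4 arrays per age: over all genes the standard error of a difference had a median of 0.14. P-values rest on 1 spread per gene between arrays, 1 per animal, shared over all 8 groups of the study. That is not the spread of the 24 week ob/ob arrays, in which array quality also varies. The podocyte list mean, for example, had an SD of 0.85 at 24 weeks and 0.25 at 16 weeks in ob/ob.

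**Figure D1:**
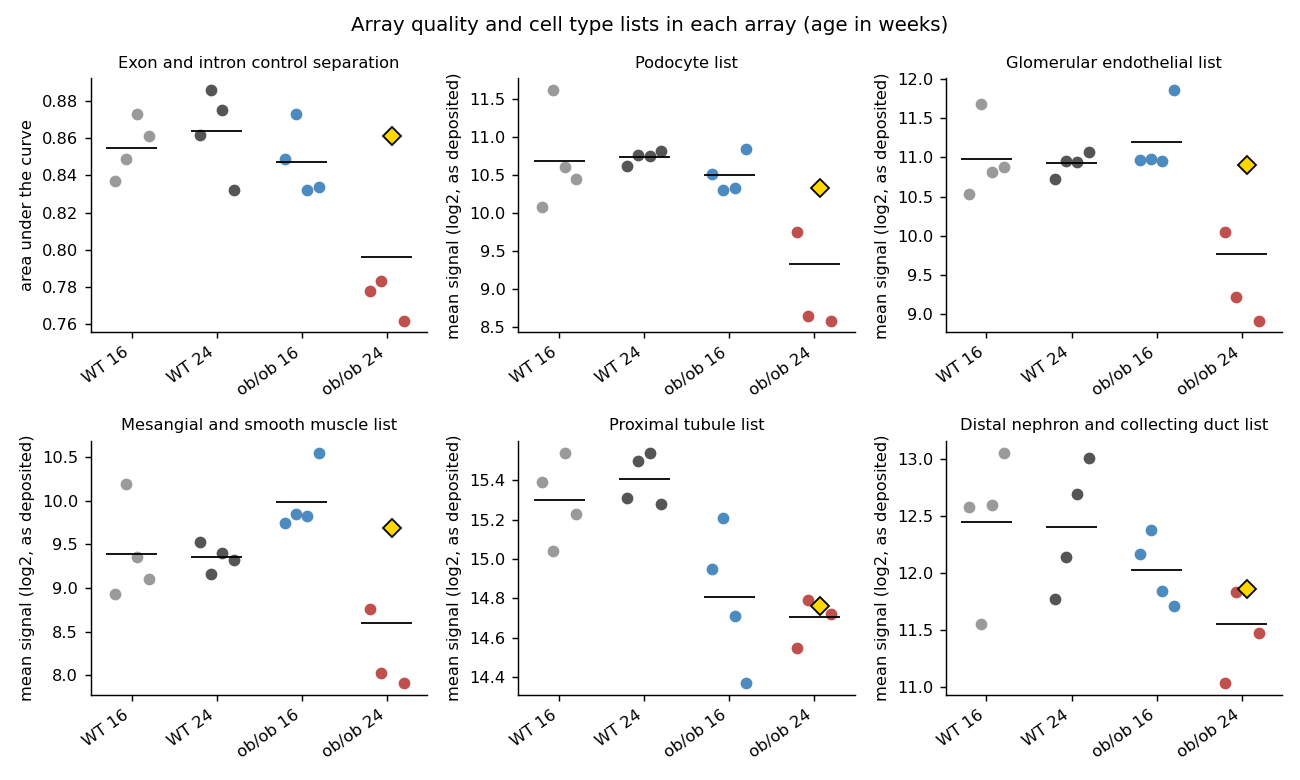
Separation of exon from intron controls (area under the receiver operating curve) and mean log2 signal of 5 marker lists in each array of wild-type (WT) and ob/ob mice of 16 and 24 weeks. Points are single arrays, lines are group means, and the yellow diamond is ob/ob 24 week replicate 3. The 3 other 24 week ob/ob arrays lie at 0.762 to 0.783 in separation and lowest on the podocyte, endothelial and mesangial lists, while replicate 3 lies near the 16 week arrays.

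Of 24099 genes tested, 2809 passed an adjusted p of 0.05 (11.7%; limma with Benjamini-Hochberg adjustment): 816 were higher at 24 weeks (3.39%) and 1993 lower (8.27%). Cyclic loess scaling of the deposited values gave 2717 calls, of which 52.6% were higher, against 29.0% higher on the values as deposited, so the split by direction rests on the scaling. Replicate 3 lay outside the range of the 16 week arrays on the side of the call for 1152 of the called genes (41.0% of them, and 4.78% of all tested). These were 314 of the higher calls (38.5%, and 1.30% of all tested) and 838 of the lower calls (42.0%, and 3.48% of all tested). Over all genes tested, the same was true of 28.5%. Replicates 1, 2 and 4 lay outside that range on the side of the call for 97.6%, 98.4% and 98.9% of called genes. All 4 arrays of 24 weeks lay apart from all 4 of 16 weeks for 38.2% of called genes and 7.95% of all tested.

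Each 24 week array was also set alone against the 16 week arrays, with the spread taken from the other groups and the single array assumed to vary like them. Replicates 1, 2 and 4 gave 2077, 2579 and 4167 calls. Replicate 3 gave 1 (0.00415%), Shld2, a subunit of the shieldin complex of DNA repair, which read 9.25 in replicate 3 and 7.41 to 8.18 in the 26 arrays that are not ob/ob of 24 weeks. With the separation of each array as a covariate, 9 genes were called (0.0373%), and 6 of them were also called without it. A fit to the 8 arrays alone called 0 genes, with a smallest adjusted p of 0.207 and 4334 genes at an unadjusted p under 0.05. Leaving out single arrays gave between 801 calls (without 24 week replicate 4) and 6041 (without 24 week replicate 3). The count was 1119 without 24 week replicate 2, 1562 without replicate 1, 1523 without 16 week replicate 4 and 1851 without 16 week replicate 2. Below, a gene is said to be seen in replicate 3 when it was called over all 4 arrays and replicate 3 also lay outside the 16 week range on that side. A called gene without overlap between the ages is seen by definition: 1073 called genes had no overlap and 1152 were seen. Lack of overlap is therefore no added support for a gene named as seen.

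**Figure D2:**
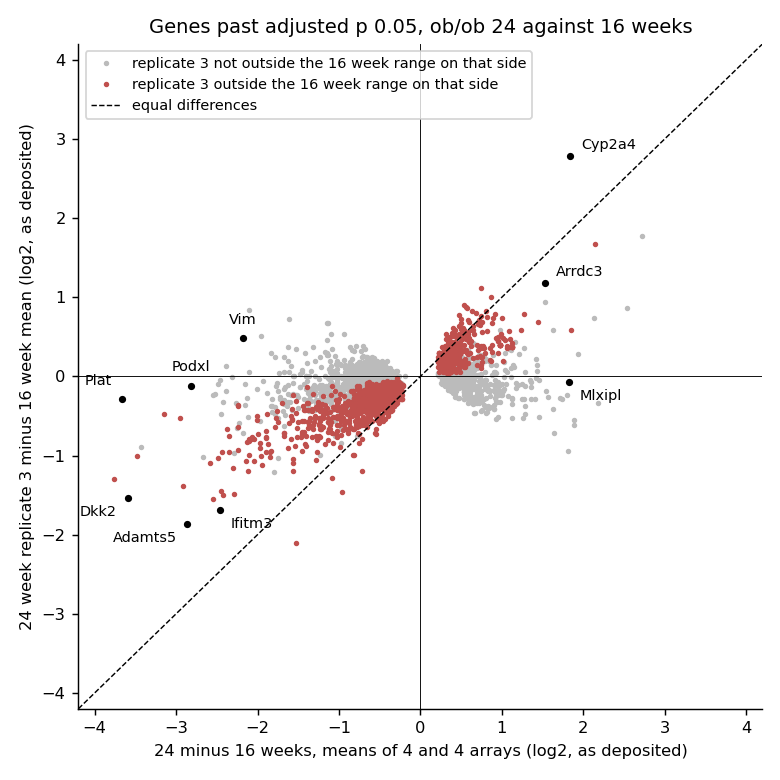
Difference of the group means (24 minus 16 weeks, x axis) and difference of 24 week replicate 3 from the 16 week mean (y axis), both in log2 units as deposited, for the 2809 genes past an adjusted p of 0.05. Red points are the 1152 genes in which replicate 3 lay outside the 16 week range on the same side, grey points the others, black points the labelled genes, and the dashed line marks equal differences. Adamts5, Ifitm3 and Dkk2 are low on both axes, while Plat and Podxl lie at -0.29 and -0.12 on the y axis.

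The 12 falls that were largest in both the group and replicate 3 were Adamts5, Ifitm3, Cd248, Dkk2, Gja5, Pcdh12, Mrc1, Ptn, Itga8, Mmp2, Bst2 and Pdgfrb. Adamts5, a protease that cleaves the proteoglycan aggrecan, read 11.74, 11.27, 12.24 and 12.48 in the 16 week arrays. At 24 weeks it read 9.93, 8.39, 10.08 and 7.90 in replicates 1 to 4, a difference of -2.86 ± 0.46 (adjusted p = 0.00181). All 4 arrays of 24 weeks lay below all 4 of 16 weeks, and replicate 3 differed from the 16 week mean by -1.86. Mmp2, the type IV collagen degrading gelatinase A, read 8.63, 8.23, 8.65 and 10.07 at 16 weeks and 6.75, 6.40, 7.70 and 6.22 at 24 weeks, a difference of -2.12 ± 0.35 (adjusted p = 0.00184). Its groups did not overlap either, but 3 of the 24 week readings lay below the intron control median of their array. The same was true of 2 readings of Pcdh12 and 1 each of Mrc1 and Ptn at 24 weeks, and of 2 each of Des, Wt1 and Clec14a, which are described further on. The sizes of those differences are therefore uncertain.

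Itga8, the integrin alpha 8 subunit carried by mesangial cells, read 13.40, 13.10, 13.98 and 15.71 at 16 weeks. At 24 weeks it read 11.27, 8.63, 12.75 and 8.51, a difference of -3.76 ± 0.72 (adjusted p = 0.00334). Replicates 2 and 4 were lowest, and replicate 3 was just below the lowest 16 week array. Dkk2, a secreted modulator of Wnt signalling, read 11.21, 10.90, 11.42 and 14.01 at 16 weeks and 8.72, 7.06, 10.34 and 7.07 at 24 weeks (-3.59 ± 0.65, adjusted p = 0.00263). Ptn, the heparin-binding growth factor pleiotrophin, read 10.40, 9.43, 9.76 and 11.53 and then 7.47, 6.68, 8.90 and 6.45 (-2.91 ± 0.53, adjusted p = 0.00264). In both, no 24 week array reached the lowest 16 week array.

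The same held for Cd248 (endosialin of perivascular cells), Gja5 (a connexin of endothelium and renin cells), Pcdh12 (an endothelial protocadherin), Pdgfrb (the receptor for platelet-derived growth factor on mesangial cells) and Mrc1 (the mannose receptor of macrophages and some endothelia). Their differences were -2.55 ± 0.54, -2.42 ± 0.49, -2.29 ± 0.48, -2.30 ± 0.48 and -2.45 ± 0.46, and replicate 3 differed from the 16 week mean by -1.55, -1.50, -1.49, -1.16 and -1.45. In 16 week replicate 4 each of these 5 genes was highest of the 8 arrays: Cd248 read 13.09 there against 10.53 to 11.07 in the other 16 week arrays. Leaving that array or any other out kept all 12 of the falls named by rank past the threshold, Ifitm3 and Bst2 included, which are described with the interferon genes. With separation as covariate, Ifitm3 alone of the 12 kept its call.

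The rises seen in replicate 3 were smaller. Arrdc3, an alpha-arrestin that takes part in receptor trafficking, read 11.70, 11.50, 12.17 and 11.95 at 16 weeks and 13.72, 13.52, 13.02 and 13.21 at 24 weeks, a difference of 1.53 ± 0.26 (adjusted p = 0.00228). All 4 arrays of 24 weeks were above the highest of the 26 other arrays of the study, 12.62. Cpeb2, which binds polyadenylation elements of mRNA, behaved in the same way, with 10.14, 9.92, 10.12 and 10.11 followed by 10.89, 11.18, 10.64 and 10.85 (0.82 ± 0.14, adjusted p = 0.00253) and a highest value of 10.29 elsewhere. Gpam, the mitochondrial enzyme that starts glycerolipid synthesis, read 10.68, 11.45, 11.21 and 11.19 and then 11.86, 11.96, 11.96 and 11.98 (0.80 ± 0.18, adjusted p = 0.00717). Replicate 3 was level with the poorer arrays.

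Slc6a18, an amino acid transporter of the proximal tubule, read 11.16, 12.12, 11.66 and 12.39 at 16 weeks and 13.40, 14.66, 12.42 and 14.27 at 24 weeks (1.85 ± 0.38, adjusted p = 0.00397). Here replicate 3 was barely above the highest 16 week array. Pik3c2g, a class II phosphoinositide 3-kinase, read 10.22, 10.15, 10.32 and 9.41 and then 11.77, 11.14, 10.62 and 11.54 (1.24 ± 0.22, adjusted p = 0.00253). Nrg1, a ligand of ErbB receptors, rose by 1.00 ± 0.19 with replicate 3 at 8.83 against 7.72 to 8.46 at 16 weeks. Prob1, Fam13a, Hs6st1 (a heparan sulfate 6-O-sulfotransferase), Tbc1d14 and Grpel2 rose by 0.63 to 0.82, and of these Tbc1d14 overlapped between the ages. The median residual spread over all genes was 0.20 units.

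Cyp2a4, a steroid 15-alpha-hydroxylase, had the largest replicate 3 difference of the 12 rises, 2.78. It read 12.91, 12.71, 11.70 and 10.51 at 16 weeks and 13.21, 14.06, 14.73 and 13.17 at 24 weeks (1.84 ± 0.54, adjusted p = 0.0284), and 3.02 with separation as covariate (adjusted p = 0.0432). Wild-type arrays of 16 weeks had read 12.60 to 14.69, so the 16 week ob/ob arrays reached below the wild-type range and the 24 week arrays did not. The Cyp2a4 call was lost without any 1 of 16 week replicates 3 and 4 and 24 week replicates 2, 3 and 4 (adjusted p = 0.0515 to 0.117). Fam13a lost its call without 16 week replicate 4 or 24 week replicate 4 (0.0566 for both), Grpel2 without 16 week replicate 4 (0.064) or 24 week replicate 1 (0.0556), and Hs6st1 without 16 week replicate 2 (0.0548) or 4 (0.0724) or 24 week replicate 2 (0.0811) or 4 (0.074). Among genes called higher, 34.8% had a 16 week mean below 6.14, the mean intron control median of those arrays, against 2.26% of genes called lower and 38.6% of all tested.

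**Figure D3:**
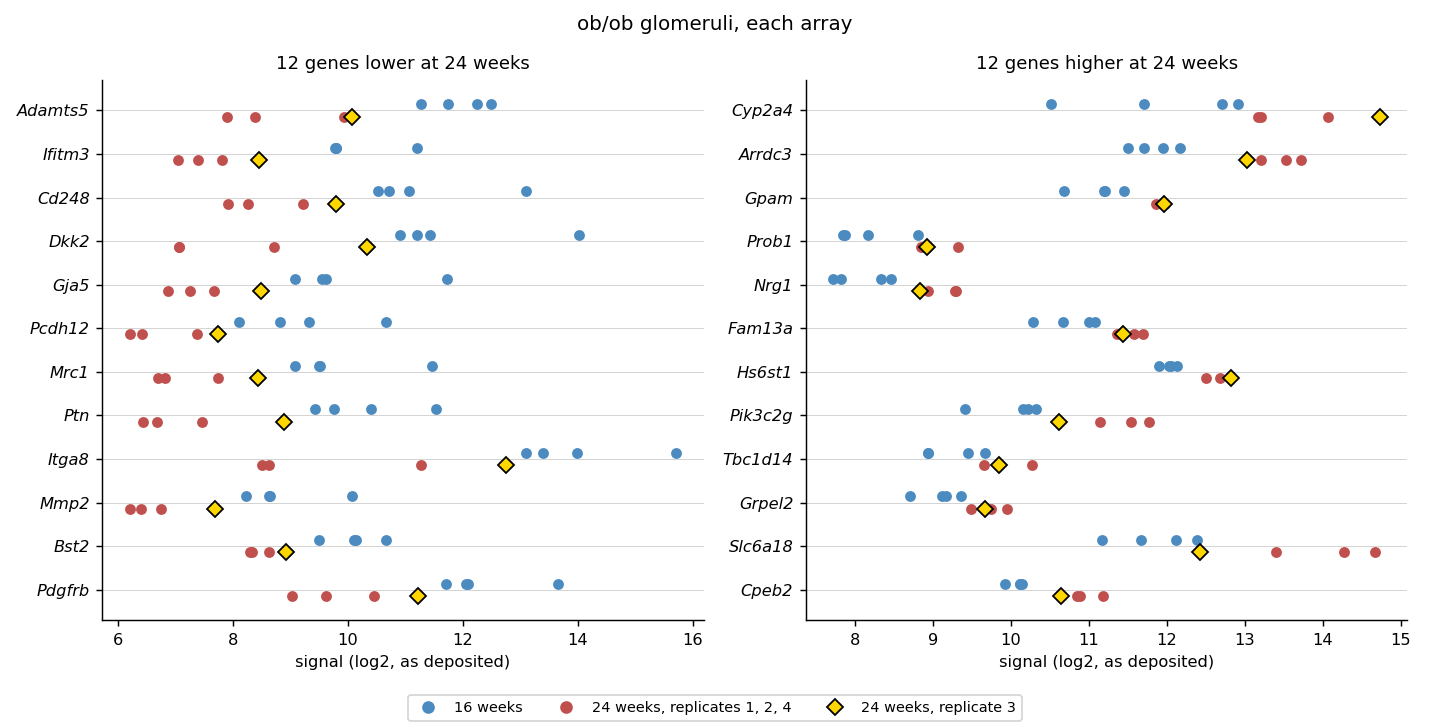
Log2 signal, as deposited, of the 12 falls and 12 rises that ranked highest by the smaller of the group difference and the difference of replicate 3, in each ob/ob array. Blue points are 16 weeks, red points 24 week replicates 1, 2 and 4, and the yellow diamond 24 week replicate 3. The genes were chosen for replicate 3 lying outside the 16 week range on the side of the call, so its side is fixed by the choice. For most falls it is the 24 week array nearest to the 16 week points.

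Many of the largest differences were absent from replicate 3. Plat, the tissue plasminogen activator of endothelium, read 15.78, 15.85, 15.96 and 17.17 at 16 weeks and 13.98, 10.52, 15.90 and 9.70 at 24 weeks (-3.66 ± 0.79, adjusted p = 0.00559). Podxl, the sialomucin that coats podocytes and endothelium, read 15.88, 15.80, 15.81 and 16.35 and then 14.34, 11.29, 15.84 and 11.09 (-2.82 ± 0.63, adjusted p = 0.00685). In both genes replicates 2 and 4 lay far below every other array of the study, replicate 1 less so, and replicate 3 sat among the 16 week arrays.

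Tm4sf1, Plpp1 and Ptpro had the same order. Tm4sf1, a tetraspanin-like protein of endothelium, read 9.20, 8.18, 11.46 and 7.78 at 24 weeks after 11.27 to 12.47 at 16 weeks, and Ptpro, a receptor phosphatase of podocyte foot processes, 9.36, 6.68, 10.69 and 6.53 after 10.22 to 11.39. The Ptpro call was lost without 24 week replicate 2 (adjusted p = 0.0642) or 4 (0.0734). Among rises, Mlxipl, the glucose-responsive transcription factor ChREBP, read 12.85, 13.19 and 13.02 in replicates 1, 2 and 4 and 10.50 in replicate 3, which lay inside the 16 week range of 10.11 to 11.05. Slc7a12, an amino acid transporter, read 13.08, 13.83 and 14.18 in those arrays and 10.35 in replicate 3, with 9.08 to 11.57 at 16 weeks. The Slc7a12 call was lost without any 1 of 24 week replicates 1, 2 and 4 and 16 week replicates 3 and 4 (adjusted p = 0.0809 to 0.171).

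Endothelial markers made up the list with the lowest median difference. Of 21 members tested, 16 were called lower and 0 higher, with a median of -1.37 against -0.01 over all genes tested, and 7 of the 16 were seen in replicate 3. For this and the later lists, 8.27% of all genes tested were called lower, and 42.0% of those were seen. The list mean per array was 10.97, 10.98, 10.96 and 11.86 at 16 weeks and 10.05, 9.22, 10.90 and 8.92 at 24 weeks, so replicate 3 was just below the lowest 16 week array and the other 3 further down. In replicate 3 the median member stood at -0.30, and 7 of 21 lay below the 16 week range with 0 above it. Of all genes tested, 18.0% lay below that range in replicate 3 and 23.5% above it. Ehd3, an endocytic protein that marks glomerular endothelium, read 15.39, 15.11, 15.84 and 16.87 and then 14.07, 10.24, 14.80 and 10.18 (-3.48 ± 0.82, adjusted p = 0.00913). Kdr, the main signalling receptor for VEGF-A, read 14.88, 14.40, 14.55 and 15.79 and then 13.62, 11.41, 13.94 and 10.90 (-2.44 ± 0.51, adjusted p = 0.00497). Neither gene overlapped between the ages.

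Angiogenic factors and receptors, which share Kdr, Flt1, Tie1 and Tek with the endothelial list, had 14 of 21 members lower and 0 higher and a median of -0.64. Of the 14, 9 were seen in replicate 3 (42.0% of all genes called lower were): Vegfc, Kdr, Nrp2, Angpt2, Tie1, Ephb4, Dll4, Notch1 and Aplnr. Tie1, the orphan receptor of the angiopoietin system, fell by 1.37 with a replicate 3 difference of -0.57, and its 9.71, 10.03, 9.70 and 10.63 at 16 weeks stood clear of 8.86, 8.26, 9.45 and 8.02 at 24 weeks. In replicate 3 the list's median was -0.36. There 10 of 21 members lay below the 16 week range and 1 above it (18.0% and 23.5% of all genes tested). In wild type the medians from 16 to 24 weeks were -0.03 for the endothelial and -0.09 for the angiogenic list. The endothelial count was 7 without 24 week replicate 4, 9 without replicate 2 and 11 without 16 week replicate 4, and with separation as covariate or with replicate 3 alone it was 0 for both lists. With the covariate the endothelial median was -1.01 and the angiogenic median -0.62, so calls were lost while the medians stayed negative. Ehd3 lost its call without 24 week replicate 2 (adjusted p = 0.0527) or 4 (0.0604).

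Podocyte markers were lower in the 3 poorer arrays, and their mean in replicate 3 stayed at the 16 week level. Of 27 tested, 17 were called lower and 0 higher (median -0.91; 8.27% of all genes tested were called lower), and 7 of the 17 were seen in replicate 3: Nphs1, Clic5, Pla2r1, Dach1, Sema3g, Ddn and Rhpn1. Among all genes called lower, 42.0% were seen, a share near that of the podocyte calls. The list mean was 10.51, 10.30, 10.33 and 10.85 at 16 weeks and 9.75, 8.65, 10.33 and 8.59 at 24 weeks, so replicate 3 lay within the 16 week range. Its median member difference was -0.13, with 9 of 27 members below the 16 week range and 5 above (18.0% and 23.5% of all genes tested). Nphs1, the slit diaphragm protein nephrin, read 10.71, 10.33, 10.80 and 12.06 and then 10.37, 7.30, 10.05 and 7.25 (-2.24 ± 0.56, adjusted p = 0.0119). Replicate 1 overlapped the 16 week arrays while replicate 3 was below them.

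Sema3g, a semaphorin of podocytes, read 12.73, 12.64, 12.32 and 13.31 and then 10.80, 7.90, 12.27 and 7.41 (-3.15 ± 0.68, adjusted p = 0.00574), with replicate 3 just below the lowest 16 week array. Pla2r1, the phospholipase A2 receptor, was more even, with 8.08, 7.82, 7.86 and 8.86 and then 7.35, 7.11, 7.50 and 7.26 (-0.85 ± 0.19, adjusted p = 0.00778). Dach1, a podocyte transcriptional regulator, read 9.36, 8.20, 8.94 and 8.56 at 24 weeks after 9.24 to 10.09 at 16 weeks, a call that ended under cyclic loess (-0.72, adjusted p = 0.0562). It also ended without 24 week replicate 2 or 4 or 16 week replicate 4 (0.0603 to 0.0755). Wt1, the podocyte transcription factor, fell by 1.66 with a replicate 3 value of 8.65 within the 16 week range of 8.64 to 9.65. The podocyte count was 4 without 24 week replicate 2 and 4 without replicate 4, 6 lower and 1 higher without 16 week replicate 4, and 12 under cyclic loess. Without 1 of those 3 arrays Nphs1 lost its call (0.0529 to 0.0754), as did Wt1 (0.0622 to 0.0964).

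Mesangial and smooth muscle markers had 8 of 14 members lower and 0 higher, with a median of -1.06. Of the 8, 5 were seen in replicate 3 (42.0% of all genes called lower were): Pdgfrb, Itga8, Des, Notch3 and Ptn. The list mean was 9.74, 9.85, 9.82 and 10.55 at 16 weeks and 8.76, 8.03, 9.69 and 7.91 at 24 weeks. Des, the muscle intermediate filament desmin, read 8.46, 8.24, 8.57 and 9.99 and then 7.21, 6.43, 8.12 and 5.93 (-1.89 ± 0.41, adjusted p = 0.00574). Notch3, the receptor of mural cells, read 8.33, 8.42, 8.63 and 9.19 and then 7.73, 7.33, 8.12 and 7.53 (-0.96 ± 0.19, adjusted p = 0.00363). In replicate 3, 7 of 14 members lay below the 16 week range and 4 above it (18.0% and 23.5% of all genes tested). The 24 week array of good separation thus did not move one way across the list. The count was 5 without 24 week replicate 4.

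Of 23 proximal tubule markers 0 were called over all arrays, and the median of -0.14 turned to 0.18 under cyclic loess. The list mean ran from 14.37 to 15.21 at 16 weeks and from 14.55 to 14.79 at 24 weeks, and leaving out 16 week replicate 4 gave 4 lower calls. Of 22 distal nephron and collecting duct markers, Hsd11b2 alone was called, the enzyme that protects the mineralocorticoid receptor from glucocorticoids, with 9.31, 11.10, 13.28 and 10.58 at 24 weeks after 12.70 to 14.21 at 16 weeks (-2.39 ± 0.60, adjusted p = 0.0128). Replicate 3 lay within the 16 week range, and the call was lost without 24 week replicate 1 (0.0637) or 4 (0.0589). The distal list as a whole had a median of -0.55 over all arrays and -0.30 in replicate 3. In that array 8 of 22 members lay below the 16 week range and 3 above it (18.0% and 23.5% of all genes tested). Of 12 parietal epithelial markers 2 were called higher and 2 lower, with a median of -0.04. Over all genes tested, 3.39% were called higher and 8.27% lower. Pax8, a transcription factor of parietal cells and tubule, was the only 1 of these calls seen in replicate 3. It rose by 1.02 ± 0.22 (adjusted p = 0.00561) with 10.37, 10.28, 10.33 and 9.87 followed by 11.31, 11.44, 10.70 and 11.49.

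Of 28 fibrosis and interstitial matrix genes, 11 were lower and 0 higher (median -0.44; 8.27% of all genes tested were called lower), with 5 of them seen in replicate 3: Col1a2, Col6a3, Tgfb1, Mmp2 and Mmp14. The members that replicate 3 did not share include Vim, the mesenchymal filament vimentin, which read 11.99, 9.72 and 9.38 in replicates 1, 2 and 4 and 13.91 in replicate 3 after 13.17 to 14.13 at 16 weeks. Ccn2, the connective tissue growth factor of podocytes and mesangium, read 10.90, 9.55 and 8.58 in those arrays, 12.98 in replicate 3 and 11.66 to 13.14 at 16 weeks. Both had negative group differences that passed the test and positive differences in replicate 3. The list count was 5 without 24 week replicate 4 or 16 week replicate 4, and 6 without 24 week replicate 2. Vim and Ccn2 lost their calls when any 1 of those 3 arrays was left out (adjusted p = 0.0645 to 0.148), and Ccn2 also without 16 week replicate 3 (0.0544).

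Basement membrane genes were lower in replicate 3 by median than in the group. The group median was -0.19, with 5 of 19 members lower and 0 higher, while the replicate 3 median was -0.32 and 11 of 19 members lay below the 16 week range with 0 above, a count that was the same under cyclic loess. Over all genes tested, replicate 3 lay below that range for 18.0% and above it for 23.5%. Not all of the 11 were low in the other arrays: Lama3, a laminin alpha chain, read 10.59, 9.90 and 10.25 in replicates 1, 2 and 4 and 9.02 in replicate 3, after 9.15 to 9.57 at 16 weeks, and Lama1 had the same order. Agrn, Lama5 and Lamb1 did not lie below the 16 week range in replicates 1, 2 and 4 either. Agrn read 10.20, 10.12 and 10.07 there and 9.33 in replicate 3, after 9.82 to 10.20 at 16 weeks. Without replicate 3 the list had 3 higher and 7 lower calls. Nid1, the linker protein nidogen 1, read 11.42, 11.87, 11.64 and 12.96 and then 10.07, 9.67, 10.98 and 8.77 (-2.10 ± 0.38, adjusted p = 0.0027). Lamc1, the laminin gamma 1 chain, fell by 0.87, and read 9.33, 9.01, 9.71 and 8.60 at 24 weeks after 9.71 to 10.24 at 16 weeks, with replicate 3 level with the lowest 16 week array to 2 decimals. Lamb2, the laminin beta 2 chain of the mature barrier, fell by 1.09 with replicate 3 at 10.92 inside the 16 week range of 10.77 to 11.56.

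None of the 6 collagen IV chains was called. Col4a1, of the mesangial and embryonic network, read 9.29, 10.01, 10.29 and 11.81 at 16 weeks and 9.70, 9.37, 9.51 and 9.13 at 24 weeks, a difference of -0.92 ± 0.33 that missed the threshold (adjusted p = 0.066). Its partner Col4a2 had -0.98 ± 0.33 (adjusted p = 0.0541). Both passed without 16 week replicate 1, at -1.28 (0.0124) and -1.32 (0.0118), and Col4a2 also without 24 week replicate 3 (0.0475) and with a stricter filter on low signal (0.0427). Col4a3 and Col4a4, of the mature podocyte-made network, had differences of 0.02 ± 0.25 and 0.39 ± 0.18, and Col4a5 and Col4a6 of -0.16 ± 0.09 and -0.02 ± 0.06. Differences between the chains were not tested. Col18a1, whose cleavage yields endostatin, fell by 0.55 ± 0.14 (adjusted p = 0.0156), and its call ended under cyclic loess (-0.36, adjusted p = 0.162), without 16 week replicate 4 (0.0744) and without 24 week replicate 1 (0.0518) or 4 (0.0713). Lamb2 lost its call without 16 week replicate 4 or 24 week replicate 2 or 4 (0.0553 to 0.0801). The list had 3 lower calls without 24 week replicate 4, and 3 lower and 1 higher without 16 week replicate 4.

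**Figure D4:**
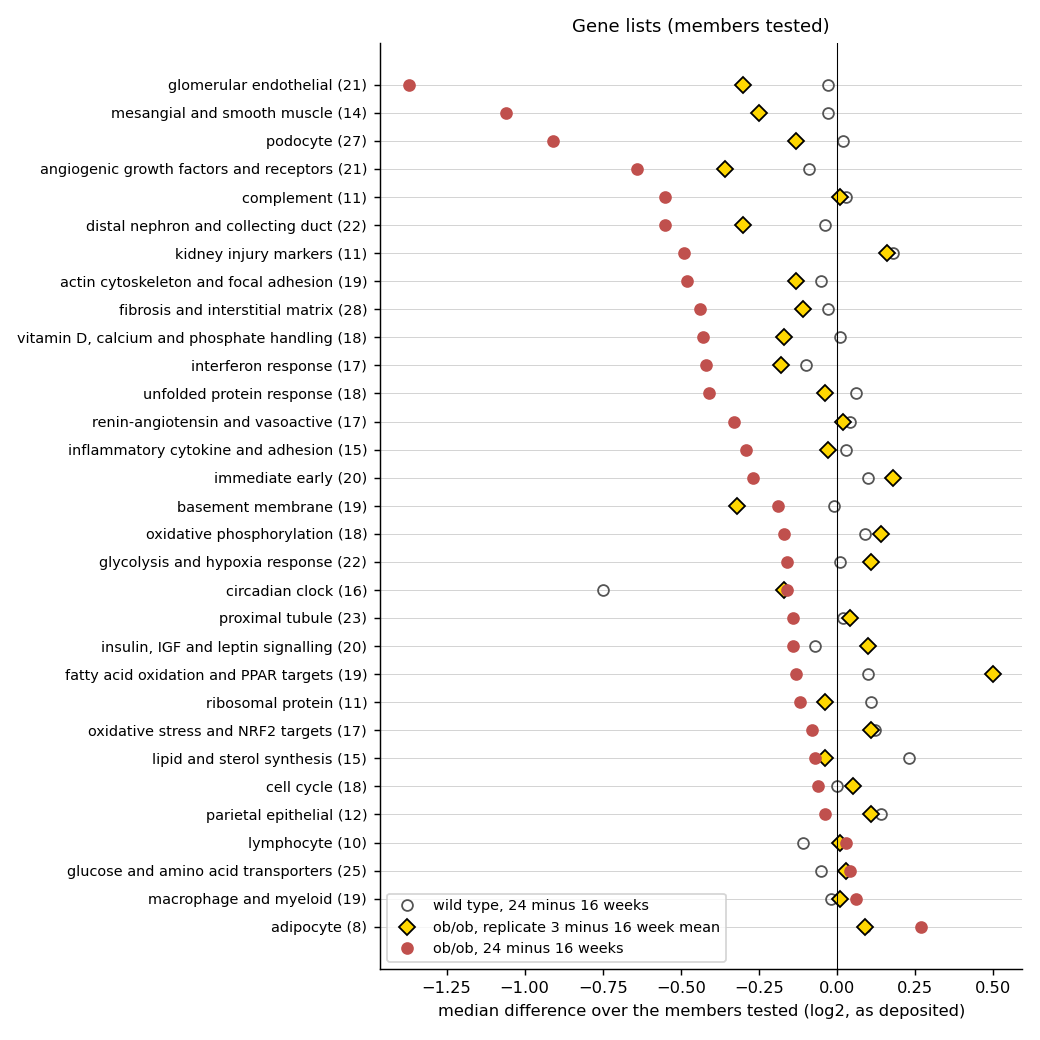
Median difference over the tested members of each list with at least 8 of them (number in brackets), in log2 units as deposited. Red points are ob/ob 24 minus 16 weeks over all 4 arrays, yellow diamonds ob/ob 24 week replicate 3 minus the 16 week mean, and open circles wild type 24 minus 16 weeks. Endothelial, mesangial and podocyte lists lie at -1.37, -1.06 and -0.91 over all arrays and at -0.30, -0.25 and -0.13 in replicate 3, and the fatty acid oxidation list lies at 0.50 in replicate 3.

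Interferon-induced genes had low list means in the 3 poorer arrays and negative differences, some of them near 0, in replicate 3. Type I interferons induce a common set of antiviral genes through the factor ISGF3, which binds promoter elements with repeated GAAA blocks. Of 17 members tested, 5 were lower and 0 higher (8.27% of all genes tested were lower), with a median of -0.42 and a replicate 3 median of -0.18. All 17 members had a negative difference in replicate 3, where the median over all genes tested was 0.01. Some were near 0: Ifit2 had -0.01, Isg15 -0.02 and Oas2 -0.06. Oas2 read 5.15 to 5.31 at 16 weeks, below 6.14, the mean intron control median of those arrays. In replicate 3, 8 members lay below the 16 week range (18.0% of all genes tested did). The list mean per array was 7.31, 7.32, 7.04 and 7.61 at 16 weeks and 6.84, 6.81, 7.04 and 6.84 at 24 weeks, so replicate 3 was level with the lowest 16 week array. The called members Oasl2, Bst2, Cmpk2 and Ddx58 were seen in replicate 3 and Rsad2 was not.

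Ifitm3, a membrane protein that blocks virus entry and is also strong in endothelium, is not on the list but was among the falls named by rank. It read 9.80, 9.79, 9.77 and 11.20 at 16 weeks and 7.81, 7.40, 8.45 and 7.05 at 24 weeks, a difference of -2.46 ± 0.34 (adjusted p = 0.00124). No 24 week array came within 1 unit of a 16 week array. With separation as covariate the difference was -2.31 (adjusted p = 0.0483). Bst2, the virus-retaining membrane protein tetherin, read 10.14, 10.11, 9.50 and 10.66 and then 8.34, 8.63, 8.92 and 8.30 (-1.56 ± 0.33, adjusted p = 0.00499), again without overlap. Ddx58, the RNA sensor RIG-I, read 9.18, 9.77, 9.09 and 9.50 and then 8.69, 8.76, 9.02 and 8.82 (-0.56 ± 0.12, adjusted p = 0.00632). Oasl2 fell by 0.66, with 24 week readings of 5.49 to 6.02, below the intron control median of the array in replicates 1, 2 and 4. In wild type the 24 minus 16 week differences of Ifitm3, Bst2 and Ddx58 were -0.24, -0.26 and -0.03.

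The promoters of these 3 falls that replicate 3 shares are shown because each holds the ISGF3 core, searched as GAAA, any 2 bases and GAAA on both strands, overlapping matches included. Each is the window of 250 bases before to 50 bases after the start, 5′ to 3′ on the gene's strand, from RefSeq on GRCm38.p6, with matches in capitals. Ifitm3 lies at chr7:141010695-141010994 on the minus strand, Bst2 at chr8:71537423-71537722 on the minus strand and Ddx58 at chr4:40239776-40240075 on the minus strand.
Ifitm3: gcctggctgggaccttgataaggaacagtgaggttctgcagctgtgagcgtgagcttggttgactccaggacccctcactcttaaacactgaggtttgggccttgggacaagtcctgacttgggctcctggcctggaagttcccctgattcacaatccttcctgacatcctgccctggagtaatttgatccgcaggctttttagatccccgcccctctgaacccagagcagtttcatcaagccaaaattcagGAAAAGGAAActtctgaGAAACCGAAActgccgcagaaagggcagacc
Bst2: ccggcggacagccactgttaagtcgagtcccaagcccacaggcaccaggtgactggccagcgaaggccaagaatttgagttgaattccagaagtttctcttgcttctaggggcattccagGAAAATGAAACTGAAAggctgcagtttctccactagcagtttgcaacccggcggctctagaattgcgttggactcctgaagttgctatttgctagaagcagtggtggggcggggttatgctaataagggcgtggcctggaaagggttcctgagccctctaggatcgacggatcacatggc
Ddx58: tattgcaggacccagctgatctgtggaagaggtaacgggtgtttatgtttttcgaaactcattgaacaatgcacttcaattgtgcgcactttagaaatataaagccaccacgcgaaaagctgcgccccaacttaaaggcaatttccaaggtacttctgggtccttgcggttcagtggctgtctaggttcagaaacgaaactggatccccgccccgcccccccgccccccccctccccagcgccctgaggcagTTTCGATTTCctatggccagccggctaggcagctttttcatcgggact
The Ifitm3 window has 2 matches, at positions 253 and 270, both after the start. In Bst2 there are 2 overlapping matches at positions 121 and 127, and in Ddx58 there is 1 match on the opposite strand at position 253. Of the 17 list members tested, 13 had a promoter in the RefSeq table and 8 held the motif, against 3.99% of 27025 genes and 3.44% of 32851 promoters of this length. The 5 list members Ifit1, Ifit3, Isg15, Oas1a and Stat2 also held it and were not called, while Oasl2 and Cmpk2 were called and had no match in their windows. The 3 windows were thus chosen for holding the motif. The letters describe the windows, and binding was not measured.

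Interferon counts moved with single arrays. The list had 2 calls without 24 week replicate 2 and 3 without 24 week replicate 1, 24 week replicate 4, 16 week replicate 2 or 16 week replicate 4, and 9 without 24 week replicate 3. It had 8 without 16 week replicate 3, the array lowest at that age. With separation as covariate the count was 0, and the median -0.32. Rsad2, the radical enzyme viperin, fell by 0.62 with 8.99 in replicate 3, inside the 16 week range of 8.77 to 9.49, and lost its call under cyclic loess (-0.48, adjusted p = 0.109). It also lost it without any 1 of the 24 week replicates 1, 2 and 4 and the 16 week replicates 2 and 4 (0.0618 to 0.124). Oasl2 lost its call without 16 week replicate 4 (0.0744) or 24 week replicate 2 (0.0755).

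Several macrophage markers were high in a single array. Adgre1, a surface receptor of macrophages, read 9.25 in 24 week replicate 2 and 5.74 to 5.89 in the other 24 week arrays, with 5.62 to 6.11 at 16 weeks. C1qb, a chain of complement C1q made by macrophages, read 8.82 in that array and 6.46 to 6.90 in the others. Itgam at 6.97 and Fcer1g at 8.24 were highest there too. Of 19 list members, Ms4a7 and Aif1 were called higher and Mrc1 and Ly6c2 lower. Ms4a7 lay below the intron control median in 7 of the 8 arrays and Aif1 in all 8. Ms4a7, a membrane protein of tissue macrophages, rose by 0.69 ± 0.20 (adjusted p = 0.0279) but by 0.32 without replicate 2 (adjusted p = 0.0648). Its call was lost as well without 16 week replicate 1, 2 or 4 (0.0533 to 0.0622). The list mean was 7.49 in replicate 2, 6.48 to 6.74 in the other 24 week arrays and 6.67 to 7.26 at 16 weeks. Ly6c2, which endothelium also carries, read 13.04, 13.03, 15.24 and 12.21 at 24 weeks after 14.70 to 16.45, so its fall was absent from replicate 3. Of 10 lymphocyte markers 0 were called, with a list mean of 5.24 to 5.31 at 16 weeks and 5.19 to 5.38 at 24 weeks.

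Of 11 complement genes, 4 were lower (8.27% of all genes tested were), among them the membrane regulators Cd55 and Cd59a, and 0 of the 4 were seen in replicate 3. Of 15 cytokine and adhesion genes, 4 were lower and Csf1 alone of them was seen in replicate 3. Vcam1, the adhesion receptor for leukocytes, read 9.21, 9.28, 7.99 and 8.83 at 16 weeks and 7.07, 7.78, 8.16 and 7.40 at 24 weeks (-1.22 ± 0.25, adjusted p = 0.00452), and replicate 3 lay within the 16 week range. The complement count was 1 without 24 week replicate 4 and 2 without 24 week replicate 2 or 16 week replicate 4, and the cytokine and adhesion count was 2 without 24 week replicate 4 or 16 week replicate 4.

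Genes of fatty acid oxidation and PPAR targets had their highest list mean of the 8 arrays in replicate 3. Over all 4 arrays 1 of 19 members was called, Ppargc1a, and the median was -0.13, which turned to 0.08 under cyclic loess. In replicate 3 the median was 0.50 (0.47 under cyclic loess), and 13 of 19 members lay above all 16 week arrays with 0 below (23.5% and 18.0% of all genes tested). The list mean was 11.80, 12.45, 12.08 and 12.37 at 16 weeks and 11.94, 12.20, 12.91 and 11.58 at 24 weeks. At 8 weeks ob/ob arrays had run from 11.77 to 12.89, so replicate 3 was close to the highest of them. Pdk4, the kinase that shuts glucose carbon out of mitochondria in fasting, read 15.09 in replicate 3, 10.38 to 11.56 in the other 24 week arrays and 9.79 to 13.18 at 16 weeks. Angptl4, a PPAR-induced inhibitor of lipoprotein lipase, read 11.42 against 8.33 to 9.71 and 8.47 to 10.89.

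Ppara, the receptor itself, read 12.23 in replicate 3, 10.45 to 10.96 in the other 24 week arrays and 10.93 to 11.66 at 16 weeks. Acot1 and Ehhadh, enzymes of acyl-CoA handling and peroxisomal oxidation, read 12.18 and 15.21 in replicate 3, each the highest of the 8 arrays. Replicates 1 and 2 also lay above all 16 week arrays in both genes, at 11.63 and 11.78 for Acot1 and 14.63 and 14.61 for Ehhadh. Cyp4a14, a fatty acid hydroxylase, read 15.97, 17.27, 16.28 and 15.99 at 24 weeks after 15.00 to 15.73. None of these 6 genes passed the test over 4 arrays or in replicate 3 alone. Ppargc1a, the coactivator of mitochondrial genes, differed: it read 12.62, 12.45, 12.58 and 11.83 at 16 weeks and 13.28, 13.51, 12.86 and 13.64 at 24 weeks (0.95 ± 0.19, adjusted p = 0.00361), without overlap and with replicate 3 the lowest of the 24 week arrays. Cdkn1a, the cell cycle inhibitor p21, was highest in replicate 3 as well, with 13.68 there, 10.37 to 11.05 in the other 24 week arrays and 10.85 to 13.16 at 16 weeks (group difference -0.38 ± 0.55, adjusted p = 0.709).

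**Figure D5:**
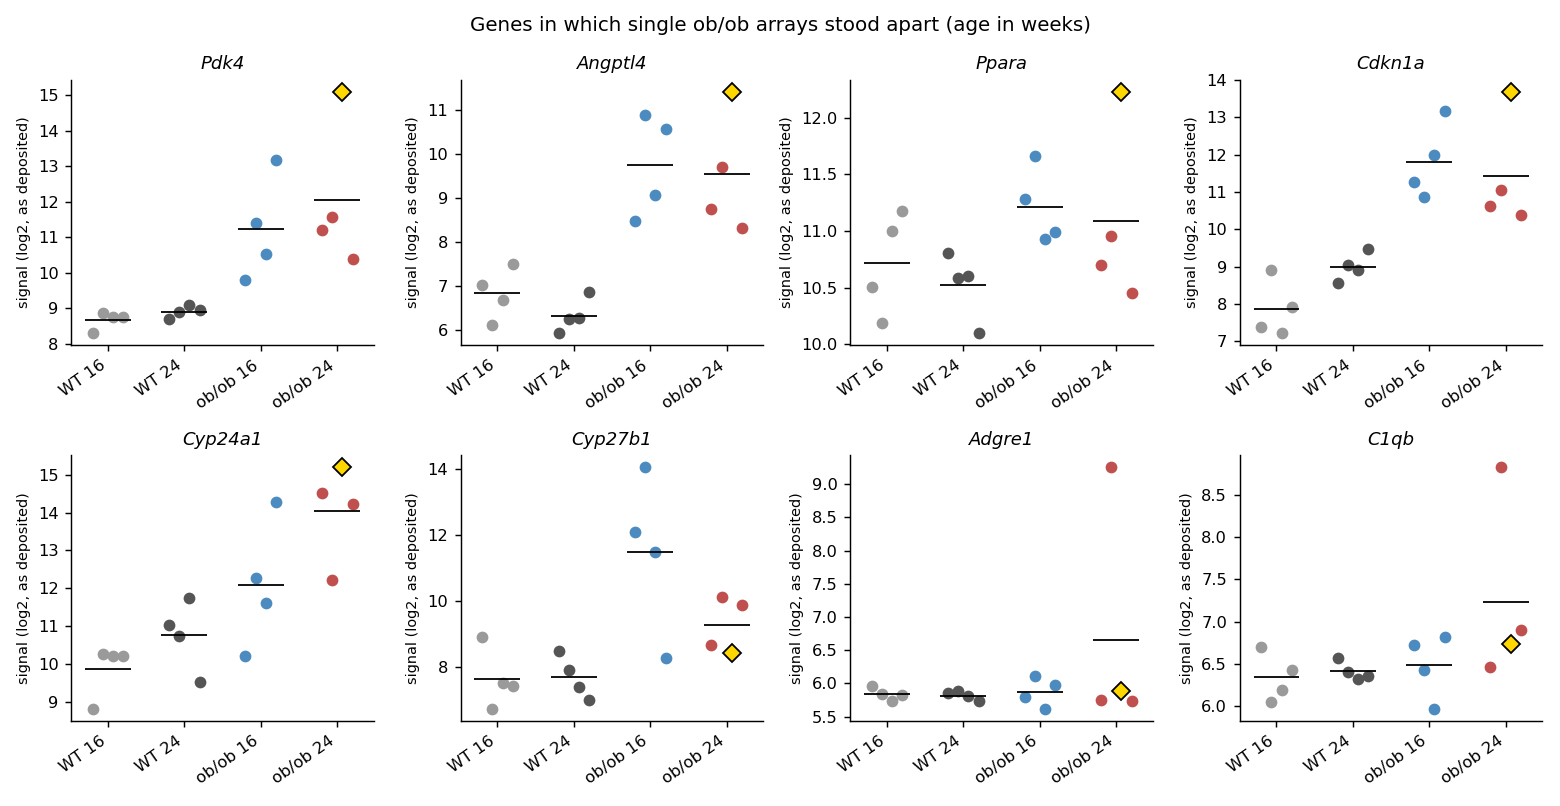
Log2 signal, as deposited, of 8 genes in each wild-type (WT) and ob/ob array of 16 and 24 weeks, with group means as lines and ob/ob 24 week replicate 3 as a yellow diamond. Replicate 3 is the highest array for Pdk4, Angptl4, Ppara, Cdkn1a and Cyp24a1, and a single 24 week array, replicate 2, reads 9.25 for Adgre1 and 8.82 for C1qb. Axes differ between panels and do not start at 0.

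Vitamin D and phosphate genes gave a pair of opposite, wide differences. Cyp27b1, which makes active vitamin D, read 12.07, 14.04, 11.49 and 8.26 at 16 weeks and 8.66, 10.12, 8.40 and 9.88 at 24 weeks, a difference of -2.20 ± 0.80 (adjusted p = 0.0713). The 24 week arrays lay below 3 of the 4 arrays of 16 weeks and above the other, replicate 4, and without that array the difference was -3.27 (adjusted p = 0.0122). Cyp24a1, which breaks active vitamin D down, read 10.22, 12.27, 11.61 and 14.27 and then 14.51, 12.21, 15.19 and 14.23, a difference of 1.94 ± 0.83 that did not pass (adjusted p = 0.128). In 16 week replicate 4 Cyp24a1 was thus at the 24 week level and Cyp27b1 was low. Replicate 2 of 16 weeks, at 12.27, also lay within the 24 week range of Cyp24a1, while its Cyp27b1 of 14.04 was the highest of the 8 arrays.

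Of 18 list members 4 were lower and 0 higher (median -0.43), and 3 were seen in replicate 3. Over all genes tested 8.27% were called lower, and 42.0% of those were seen. Pth1r, the receptor for parathyroid hormone, read 14.25, 14.62, 14.32 and 13.83 at 16 weeks and 13.31, 13.50, 13.76 and 13.29 at 24 weeks (-0.79 ± 0.17, adjusted p = 0.00643). All 24 week arrays lay below the lowest of the 26 other arrays, 13.83. Slc34a3, a phosphate cotransporter, fell by 0.78 (adjusted p = 0.0399), with 10.93, 10.50, 10.89 and 10.71 after 10.91 to 12.09. Its call was lost under cyclic loess (0.078) and without any 1 of the 8 arrays but 16 week replicate 4 and 24 week replicate 3 (0.0564 to 0.153). The list had 1 call when any 1 of 16 week replicates 1 and 2 and 24 week replicates 1 and 4 was left out, 2 without 24 week replicate 2 and 6 without 16 week replicate 4. Under cyclic loess it had 1 lower and 1 higher.

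Among hormone and signalling genes, Agtr1a, the type 1 angiotensin II receptor, read 10.44, 10.48, 10.83 and 11.35 at 16 weeks and 9.81, 9.69, 9.94 and 9.38 at 24 weeks (-1.07 ± 0.18, adjusted p = 0.00241). The groups did not overlap and replicate 3 differed from the 16 week mean by -0.84. Of 17 renin-angiotensin and vasoactive genes 6 were lower and 0 higher (8.27% of all genes tested were lower). Of the 6, Agtr1a, Atp6ap2 and Npr1 were seen in replicate 3, as were 42.0% of all genes called lower. The count was 2 without 24 week replicate 4, and 3 without 24 week replicate 2 or 16 week replicate 4. Agt, angiotensinogen, had a difference of -0.07 ± 0.36.

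Of 20 insulin, IGF and leptin genes 4 were lower (8.27% of all genes tested were). All 4 were seen in replicate 3 (42.0% of all genes called lower were): Igfbp4, Igfbp5, Pik3r1 and Grb10. The list's median was -0.14 over all arrays and 0.10 in replicate 3. In that array 5 of 20 members lay above the 16 week range and 5 below (23.5% and 18.0% of all genes tested). Igfbp5, a binding protein for insulin-like growth factors, read 15.46, 15.34, 15.13 and 16.62 and then 14.46, 13.57, 14.87 and 13.56 (-1.52 ± 0.34, adjusted p = 0.00659). Pik3r1, the regulatory subunit of phosphoinositide 3-kinase, read 12.62, 11.98, 12.09 and 12.56 and then 11.52, 11.12, 11.69 and 10.81 (-1.03 ± 0.21, adjusted p = 0.00371). Both were lower in each 24 week array than in any 16 week array. Lepr, the leptin receptor, had -0.39 ± 0.18 (adjusted p = 0.168), and Lep stayed below the intron control median of its array in all 8 arrays, at 5.18 to 5.45 and 5.40 to 5.96.

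Of 19 actin cytoskeleton and focal adhesion genes 13 were lower (median -0.48), with Actb, Myh10, Vcl and Zyx seen in replicate 3. The count was 3 without 24 week replicate 4, 5 without replicate 2, 8 without 16 week replicate 4 and 6 under cyclic loess. For the lists that follow, 8.27% of all genes tested were called lower. Of 18 genes of the unfolded protein response 4 were lower, with Canx and Sel1l seen in replicate 3, and the count was 0 under cyclic loess and without 24 week replicate 1 or 4. Of 20 immediate early genes 4 were lower and 0 of them were seen in replicate 3, and without 24 week replicate 1 or 4 none was called. The median of these 20 genes was -0.27 over all arrays and 0.18 in replicate 3. In that array 8 lay above the 16 week range and 0 below (23.5% and 18.0% of all genes tested). Of the 18 oxidative phosphorylation, 17 NRF2, 15 lipid synthesis and 16 circadian genes 0 were called. Of 11 injury markers Vcam1 and Vim were called, both lower. Havcr1, the tubular injury molecule KIM-1, had a difference of -0.12 ± 0.39, and Kap and Apob, an androgen-regulated tubule protein and the lipoprotein scaffold, had -1.11 ± 0.88 and -0.28 ± 0.41, all short of the threshold.

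In wild type the same step from 16 to 24 weeks gave 1 call (0.00415%) and 1571 genes at an unadjusted p under 0.05. The test of whether the change differed between the genotypes called 0 of 24099 genes (0%), with a smallest adjusted p of 0.051 and 4483 genes at an unadjusted p under 0.05. No change is therefore shown to be particular to ob/ob. The named genes with the smallest interaction p were Slc27a3, Cstb, Dpysl3, Ostc and Clec14a, each with an adjusted p of 0.1. Cstb, the protease inhibitor cystatin B, read 10.49, 11.37, 11.12 and 10.80 and then 9.24, 9.98, 10.18 and 9.44 in ob/ob (-1.23 ± 0.18, adjusted p = 0.00145), and its wild-type difference was 0.11. Clec14a, a lectin of endothelium, changed by -1.75 ± 0.29 in ob/ob against 0.27 in wild type, and Ostc, a subunit of oligosaccharyltransferase, -0.97 ± 0.21 against 0.50.

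Genes that kept a call with separation as covariate were few. Besides Ifitm3 and Cyp2a4 they included Chrdl2, Dpysl3, Frmd3 and Adam22, which were also called without the covariate. Dpysl3, a cytoskeletal protein of neurons and mesenchyme, read 8.48, 9.26, 8.67 and 9.15 at 16 weeks and 7.36, 7.31, 8.26 and 7.26 at 24 weeks (-1.35 ± 0.18, adjusted p = 0.00124, and -1.01 with the covariate, adjusted p = 0.0483). Frmd3 read 6.98, 6.95, 7.33 and 7.52 and then 6.19, 5.70, 6.60 and 5.84 (-1.11 ± 0.16). Adam22, a catalytically inactive ADAM protein, fell by 1.00 ± 0.14, from 8.53, 8.09, 8.19 and 8.89 to 7.38, 7.29, 7.80 and 7.21. Chrdl2, a secreted antagonist of BMP ligands, rose from 5.61, 5.76, 5.51 and 5.38 to 5.91, 6.16, 6.24 and 5.94 (0.50 ± 0.10, adjusted p = 0.0035), and 0.66 with the covariate (adjusted p = 0.0165). Its readings lay below the intron control median of the array in 7 of the 8 arrays, and those of Frmd3 in 3 of the 4 arrays of 24 weeks, so the sizes of these differences are uncertain. In each of these 4 genes the ages did not overlap and replicate 3 lay on the side of the other 24 week arrays. Plekhb1 was called with the covariate alone (0.87, adjusted p = 0.0483).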

How the data were processed

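The authors deposited log2 values computed by RMA with Expression Console 1.4 of Affymetrix, per the submitters' processing notes. For the genome build and the further settings of RMA, the value is not given in the sources used here. Values were used as deposited. Of 72688 probe sets, 30604 carried 1 gene symbol in the platform annotation, 2146 several, and 33206 none; symbols were updated through the gene identifier where possible (827 changed). For 355 genes with several probe sets the one with the highest mean was taken. A gene entered the tests with a log2 signal of 5 or more in 3 or more arrays, which left 24099 genes, 398 of them with values identical to those of another gene.

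All 30 arrays entered a fit with a mean for each of the 8 groups in limma 3.58.1 in R 4.3.3 (22 residual df, prior df 3.16), with Benjamini-Hochberg adjustment over all genes and a threshold of 0.05. The fit was checked on simulated data. Separation is the area under the curve between exon and intron control probe sets. The 33 gene lists, 31 with at least 8 tested members, and the members of the comparison were chosen with earlier results of these data known.

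Named genes are the 12 rises and 12 falls that ranked highest by the smaller of the group and replicate 3 differences, the 5 largest of each direction not seen in replicate 3, up to 4 called members of each list, the 5 smallest interaction p-values and 14 fixed names; predicted genes and large gene families were left out. The text names fewer. Chosen after their values were seen were Pla2r1, Dach1, Tie1, Des, Notch3, Col4a2, Pdk4, Ppara, Angptl4, Ehhadh, Acot1, Adgre1, C1qb, Itgam, Fcer1g, Cyp4a14, Lama1, Lama3, Lama5, Lamb1, Agrn, Ifit2, Isg15, Mx2, Oas2, Col4a4, Col4a5, Col4a6, Shld2, Chrdl2, Adam22, Frmd3 and Plekhb1. Alternatives were other filters, cyclic loess, array weights, other empirical Bayes settings, the mean of probe sets, a minimum difference of 1, separation or the proximal tubule mean as covariate, fewer arrays, leaving out each array, and a block on the replicate number. Replicate numbers did not pair the arrays.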

Additional observations from a re-analysis of the deposited data

Results flagged for a closer look

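In 19 of 206 groups of 4 arrays, 1 array lay far from the other 3 by Dixon's test, which chance alone does in about 1 in 20 groups. The array most often concerned was 16 week ob/ob replicate 4, which was high in Ifitm3 (11.20, others 9.77 to 9.80), Dkk2 (14.01, others 10.90 to 11.42), Plat (17.17, others 15.78 to 15.96), Podxl (16.35, others 15.80 to 15.88), Plpp1 (15.74, others 14.03 to 14.29) and Vim (14.13, others 13.17 to 13.24). Its means of the endothelial and mesangial lists were 11.86 and 10.55, against 10.96 to 10.98 and 9.74 to 9.85 in the other 16 week arrays. The same array was low in Slc34a1 (18.79, others 19.33 to 19.43). Its part in these results was not tested beyond leaving it out.

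At 24 weeks replicate 2 was high in Adgre1 (9.25, others 5.74 to 5.89), Ms4a7 (6.91, others 5.36 to 5.55) and Prob1 (9.32, others 8.84 to 8.92). Replicate 3 stood apart in Mlxipl (10.50, others 12.85 to 13.19), Dpysl3 (8.26, others 7.26 to 7.36) and Havcr1 (6.68, others 6.25 to 6.32), and replicate 1 in Col4a3 (12.60, others 11.76 to 11.90). At 16 weeks replicate 1 was low in Acot1 (10.72, others 11.11 to 11.12) and replicate 2 in Cpeb2 (9.92, others 10.11 to 10.14). The median of exon controls minus that of intron controls was 4.97 in 16 week replicate 2, against 4.29 to 4.38 in the other arrays of that age.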

How the results depend on the processing

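The 2809 calls of ob/ob 24 against 16 weeks became 5019 with array weights, 479 with a difference of at least 1, 9 with separation as covariate, 1 with replicate 3 alone at 24 weeks and 0 in a fit to the arrays compared, and 801 to 6041 with single arrays left out. The count of genes called and seen in replicate 3 was 1152, and 204 with a difference of at least 1. It was 9 with the covariate and 0 with the arrays compared. Of the genes called with the covariate, 6 were also called in the main fit. Of 533 distinct list members tested, 138 were called; the count was 75 with 24 week replicate 1 alone, 75 with a difference of at least 1, 0 with the covariate, 0 with replicate 3 alone, 0 with the arrays compared, and 54 to 216 with single arrays left out. Array means of the podocyte, endothelial and mesangial lists differed by -1.17, -1.42 and -1.39, and by -0.17, -0.29 and -0.30 with replicate 3 alone. The proximal tubule mean of -0.11 turned to 0.17 under cyclic loess and ran from -0.25 to 0.03 with single arrays left out. The separation difference ran from -0.073 to -0.040. With replicate 3 alone the differences of Slc7a12 and Mlxipl turned to -0.33 and -0.07, and those of Vim and Ccn2 to 0.48 and 0.51. The wild-type count of 1 became 1272 with array weights, 4 with the proximal tubule mean as covariate, 2 with a filter of 6, 0 under cyclic loess, with the arrays compared or with a difference of at least 1, and 0 to 124 with single arrays left out. The interaction count of 0 became 4105 with array weights, 352 with the tubule covariate, 1 under cyclic loess, 1 with trend and robust settings, and 0 to 3689 with single arrays left out (3689 without ob/ob 24 week replicate 3). Replicate numbers do not pair the arrays: deviations of same-numbered arrays correlated at -0.03, 0.09, -0.32 and -0.01. The replicate block gave 2946 calls in ob/ob, 0 in wild type and 7 in the interaction. Beyond the settings shown, the cause of these changes was not tested.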
